A study of Macaca mulatta with 8 samples.

Results

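Regulatory T cells, or Tregs, depend on the transcription factor FOXP3, belong to the CD4-positive T cells and restrain immune responses. In blood they range between naive-like cells, which carry genes of lymph node entry and quiescence such as LEF1 and TCF7, and effector cells, which carry genes of activation and tissue entry. Tregs are known for high surface CD25, the alpha chain of the IL-2 receptor, and low CD127, the receptor chain for IL-7, which is a survival factor of naive and memory T cells.

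The naive-like Tregs of day 20 after adoptive transfer in rhesus macaques were compared between transferred cells and the endogenous cells of the same day. The transferred group comprised 985 cells that the authors' deposited annotation names transferred naive Tregs in the library sorted on CFSE, a dye that labels cells and is diluted as they divide. The endogenous group comprised 412 cells named endogenous naive Tregs in the library sorted as CD3-positive, CD4-positive, CD25high and CD127low. Together these 1397 cells are part of 25397 cells in 8 droplet-based single-cell libraries, 4 sorted populations on each of day 3 and day 20. All libraries came from cryopreserved blood mononuclear cells that were thawed, enriched for CD4-positive cells and then sorted. The labels name neither the animals nor any treatment, so neither group can be tied to a number of animals, and that the CFSE-positive cells are the transferred ones is taken from the series title and the deposited names.

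Each group came from 1 library, so no replicate spread, test or p-value exists for any difference below. All 95% intervals cover counting error only. The method behind the deposited names is not given in the sources used here. If the names came from the expression of the same cells, differences between the groups are in part what separated them, and all values are a description of these libraries. The transferred group held 2582793 UMIs (counted RNA molecules) with a median of 2599 per cell, and the endogenous group 1144064 UMIs with a median of 2712.5 per cell. No cell barcode was shared between the groups, and 2 were shared between their whole libraries. Of the transferred cells 921 (93.5%) were in the authors' cluster 2, and 379 of the endogenous cells (92.0%) were in cluster 4, with the other 33 in cluster 3. Levels are CPM, the usual scaling of the summed UMIs of a gene to a common total for each group, and log2 ratios are of transferred over endogenous cells with 10 CPM added to both, which understates the change of low genes.

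The deposited names were checked against markers of Tregs and of naive-like cells. The summed level of 6 Treg markers was 565 CPM in transferred and 415 CPM in endogenous naive-like cells, against 41.0 CPM in the conventional CD127-positive CD25-negative cells of the same day. IL2RA, which encodes CD25, gave 313, 281 and 5.16 CPM of these sums. The endogenous and conventional cells were sorted on CD25, so this part of the gap is partly set by the sorts. FOXP3, not a sort marker, was 127, 64.7 and 0.246 CPM in the same order. The 7 naive-like markers summed to 568 CPM in transferred and 975 CPM in endogenous naive-like cells, and to 166 CPM in endogenous effector Tregs of day 20. CCR7, a lymph node homing receptor among these 7, was barely detected, with 4 UMIs in transferred and 3 UMIs in endogenous cells. The 11 effector Treg markers that are in the table reached 1635 CPM in transferred, 1951 CPM in endogenous naive-like and 11013 CPM in endogenous effector cells. Among other cell types, 5 monocyte markers summed to 3.87 CPM in transferred and 3.50 CPM in endogenous cells, and 4 B cell markers to 39.1 CPM in transferred and 47.2 CPM in endogenous cells, while both platelet markers were at 0 in both groups. The 3 red cell markers in the table summed to 149 CPM in transferred and 117 CPM in endogenous cells, the highest sum of the non-T-cell types checked, and almost all of it was the hemoglobin gene HBA2.

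Of 1924 genes that reached 50 CPM in at least 1 group, 56 (2.91%) were 2-fold or more higher in transferred cells and 39 (2.03%) were 2-fold or more lower. The genes lower in transferred cells included receptors of survival and migration, IL7R, ITGB1 and GPR183, and the survival gene BCL2. Those higher included CSF1, the Treg receptor gene TNFRSF18, BAX and CD52. The median log2 ratio of all 1924 genes was 0.20 and not 0, and cytosolic ribosomal protein genes took 40.3% of UMIs in transferred and 44.4% in endogenous cells. The balance of the counts rests on the scaling. TMM factors gave 34 higher and 52 lower genes, median-of-ratios factors 21 and 66, and scaling on named genes without ribosomal protein genes 32 and 57. These 3 scalings shift the ratios of all genes down, by a median of -0.15, -0.21 and -0.17 on the log2 scale, so that genes leave the higher count and enter the lower one by construction. They kept 34, 21 and 32 of the 56 higher genes. Among the counted genes 13 of the 39 lower and 0 of the 56 higher had no gene symbol or only a placeholder name, as did 256 of all 1924 genes. The median log2 ratio of these 256 was -0.25, beside 0.25 for the 1580 genes with a symbol that are not ribosomal or mitochondrial. At the edge of the 2-fold limit, HCLS1, an actin-binding signalling protein, was just inside at 197 CPM in transferred and 93.5 CPM in endogenous cells, and the integrin gene ITGB2 just outside at 174 CPM in transferred and 83.0 CPM in endogenous cells.

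**Figure D1:**
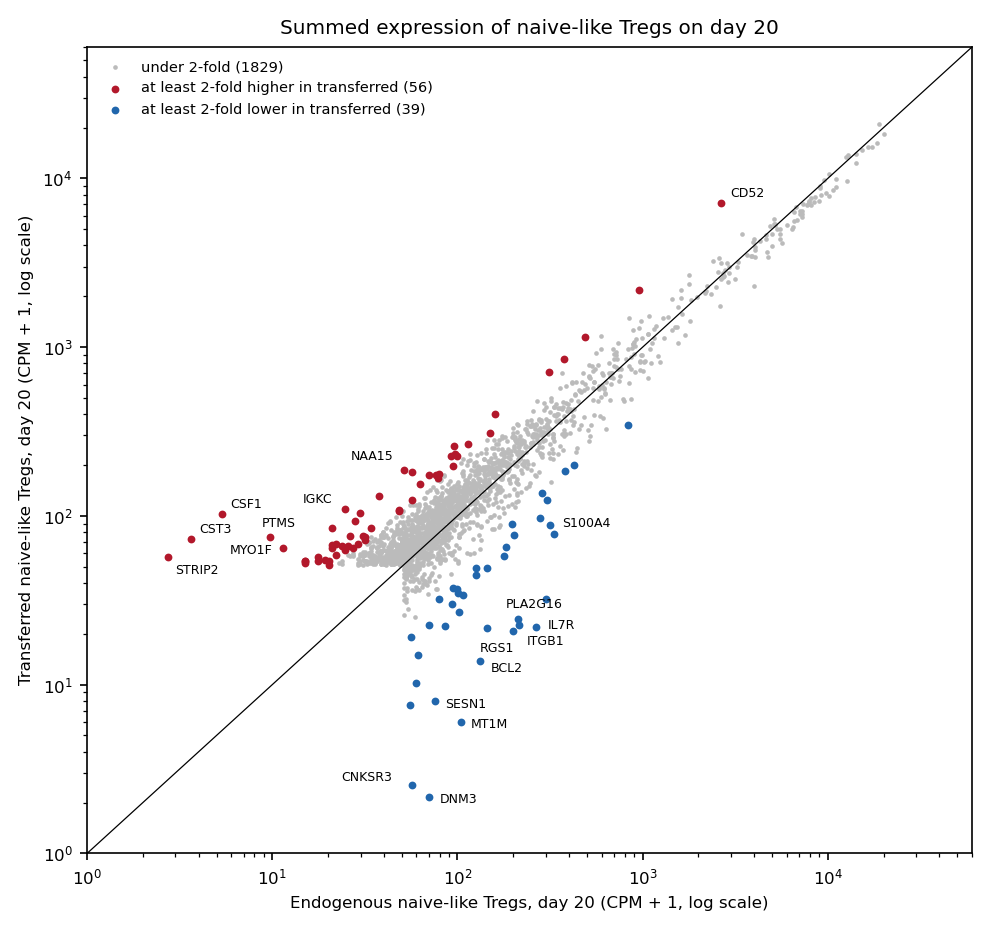
Summed expression in transferred (vertical) and endogenous (horizontal) naive-like Tregs of day 20, in CPM plus 1 on log axes, 1 point per gene at 50 CPM or more in either group. The 56 red genes lie at least 2-fold above and the 39 blue genes at least 2-fold below equality, and the blue genes reach farther from the line, down to DNM3, CNKSR3 and MT1M.

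Among the measured genes that define Tregs, TNFRSF18 was at least 2-fold higher in transferred cells and 0 were at least 2-fold lower. FOXP3 (ENSMMUG00000008624) stood at 127 CPM (114 to 142) in transferred and 64.7 CPM (50.8 to 81.2) in endogenous naive-like cells, a log2 ratio of 0.88, just under 2-fold. It was found in 25.6% of transferred and 16.02% of endogenous cells, and with every cell thinned to 1000 UMIs in 10.8% (8.89 to 12.9) of transferred and 6.07% (3.96 to 8.83) of endogenous cells. In the conventional cells of day 20, a separate library of cells that should largely lack FOXP3, it was found in 0.0544% of cells at a median depth of 2185 UMIs. Stray FOXP3 RNA within either Treg library was not measured. On day 3 FOXP3 was closer, at 142 CPM (103 to 190.1) in transferred and 110.3 CPM (98.0 to 124) in endogenous naive-like cells, with overlapping intervals.

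IL2RA, which encodes CD25, the marker on which the endogenous but not the transferred cells were sorted, was close in both groups on both days. On day 20 it was 313 CPM (292 to 336) in transferred and 281 CPM (251 to 313) in endogenous cells, and on day 3 it was 483 CPM in transferred and 492 CPM in endogenous cells. TNFRSF18 (ENSMMUG00000014205), the co-stimulatory receptor GITR of Tregs and activated T cells, was 91.8 CPM (80.4 to 104) in transferred against 27.1 CPM (18.4 to 38.5) in endogenous cells, a log2 ratio of 1.46. On day 3 it was 74.0 CPM in transferred and 33.3 CPM in endogenous cells. Of 18 genes in the Treg core list 7 were measured, at 20 CPM or more in either group. TNFRSF18 was the 1 member counted as higher and 0 were counted as lower, where 2.91% of all 1924 genes were higher and 2.03% lower. Only members at 50 CPM can be counted. The list's median log2 ratio was 0.20, beside 0.18 over all 3920 genes at 20 CPM, and it turned to -0.01 with median-of-ratios factors. CTLA4, the checkpoint receptor of Tregs, went the other way at 24.4 CPM (18.7 to 31.2) in transferred and 38.5 CPM (27.9 to 51.6) in endogenous cells, with overlapping intervals. The range among members ran from IL2RB, a shared chain of the IL-2 and IL-15 receptors, at -0.61 to TNFRSF18.

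Among the genes of naive and quiescent T cells, IL7R, LEF1 and TCF7 were at least 2-fold lower in transferred cells. The log2 ratio of IL7R was the lowest among the counted genes that have a symbol. IL7R (ENSMMUG00000001676) encodes CD127 and stood at 20.9 CPM (15.7 to 27.3) in transferred against 263 CPM (234 to 295) in endogenous naive-like cells, a log2 ratio of -3.14. On day 3 it was 35.4 CPM (17.7 to 63.4) in transferred and 159 CPM (144 to 175) in endogenous cells. It was found in 3.35% (2.32 to 4.67) of transferred and 43.2% (38.4 to 48.1) of endogenous cells on day 20, and after thinning in 1.83% of transferred and 22.1% of endogenous cells. The endogenous cells were sorted as CD127low, and the transferred cells without CD127, so the group that the sort chose for low CD127 protein was the one with more IL7R RNA. Conventional cells, which were sorted as CD127-positive, had 890.1 CPM.

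LEF1 and TCF7 are transcription factors of naive T cells. LEF1 had 64.3 CPM (54.9 to 74.8) in transferred and 183 CPM (159 to 209) in endogenous cells, and on day 3 it had 93.4 CPM in transferred and 160.3 CPM in endogenous cells. TCF7 had 48.4 CPM (40.3 to 57.7) in transferred and 125 CPM (105 to 147) in endogenous cells, and on day 3 it had 22.5 CPM in transferred and 75.8 CPM in endogenous cells. Endogenous effector Tregs had 46.5 CPM (35.6 to 59.6) of LEF1 and 20.2 CPM (13.3 to 29.4) of TCF7, so transferred cells lay above effector cells for TCF7, while the intervals of LEF1 overlapped. BACH2, a repressor that holds T cells in quiescence, was 3.10 CPM (1.34 to 6.10) in transferred and 36.7 CPM (26.5 to 49.6) in endogenous cells, which is under the 50 CPM set for counting.

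Of the 18 naive and quiescent genes 13 were measured and 9 reached 50 CPM, and of these 9, 3 were counted as lower and 0 as higher, beside 2.03% lower and 2.91% higher among all 1924 genes. The median log2 ratio of the 13 was -0.51, beside 0.18 over all genes at 20 CPM, with 3 members above 0 and 10 below. SATB1, a chromatin organiser of T cell development, ran against the others at 49.6 CPM (41.4 to 58.9) in transferred and 18.4 CPM (11.4 to 28.1) in endogenous cells, a log2 ratio of 1.07 that fell short of the 50 CPM limit. S1PR1, which lets T cells leave lymph nodes, was 55.0 CPM in transferred and 40.2 CPM in endogenous cells, with overlapping intervals. TXNIP, a glucose uptake inhibitor of resting cells, was likewise near even at 573 CPM in transferred and 619 CPM in endogenous cells.

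**Figure D2:**
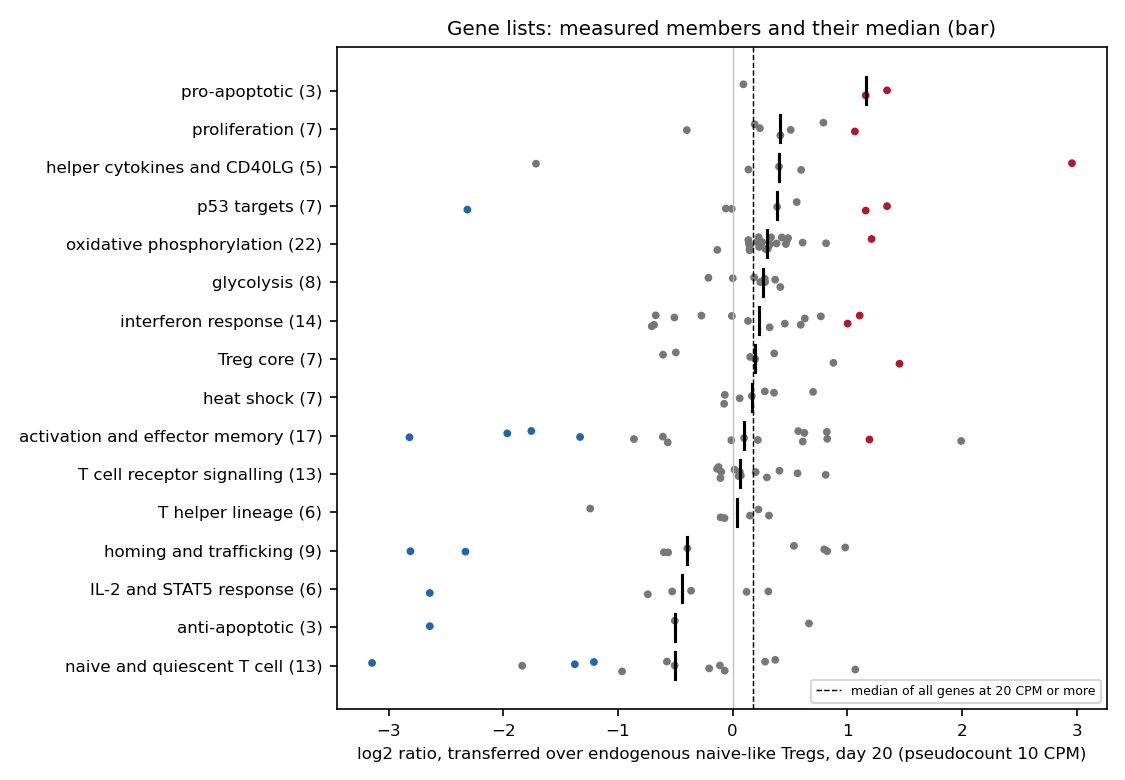
Log2 ratio on day 20 (transferred over endogenous naive-like Tregs, horizontal) of the measured members of 16 gene lists (rows, number measured in brackets). Points are genes, red and blue where at least 2-fold higher or lower at 50 CPM or more, bars are list medians and the dashed line is the median of all genes at 20 CPM or more. The naive and quiescent, anti-apoptotic, IL-2 and STAT5, and homing lists have medians below 0. The medians of the activation, T cell receptor signalling, T helper lineage, heat shock and Treg core lists lie near 0 and change sign under at least 1 other scaling.

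Genes of activation and effector memory split. The classical memory genes ITGB1, S100A4 and ANXA1 and the early activation antigen CD69 were at least 2-fold lower in transferred cells, while S100A11 was higher. ITGB1 (ENSMMUG00000017767), the integrin beta 1 chain, was 21.7 CPM (16.4 to 28.2) in transferred against 213 CPM (187 to 242) in endogenous cells, a log2 ratio of -2.82. On day 3 it was 41.8 CPM in transferred and 203 CPM in endogenous cells. S100A4 (ENSMMUG00000010979), which binds calcium and is abundant in memory T cells, was 77.4 CPM (67.1 to 88.9) in transferred and 331 CPM (299 to 366) in endogenous cells, and on day 3 it was 93.4 CPM in transferred and 551 CPM in endogenous cells.

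Endogenous effector Tregs of day 20 had 5272 CPM of S100A4, and a small part of the endogenous naive-like group carried much of its S100A4. The 33 endogenous cells in the authors' cluster 3 had 1903 CPM and the 379 in cluster 4 had 211 CPM. ITGB1 had 614 CPM in the same 33 cells and 183 CPM in the 379. With only cluster 2 transferred and cluster 4 endogenous cells, 69 genes were higher and 42 lower, and all 39 lower genes were kept. ANXA1, an inhibitor of inflammation that T cells also make, was 86.7 CPM (75.7 to 98.9) in transferred and 316 CPM (285 to 351) in endogenous cells, and CD69 was 43.4 CPM (35.7 to 52.2) in transferred and 124 CPM (104.5 to 146) in endogenous cells.

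S100A11, another calcium-binding protein of the same family, was 2188 CPM (2132 to 2246) in transferred and 951 CPM (895 to 1009) in endogenous cells, a log2 ratio of 1.19. S100A10, the partner of annexin A2, was 1491 CPM in transferred and 839 CPM in endogenous cells, and S100A6 was 277 CPM in transferred and 510.5 CPM in endogenous cells, so members of this gene family did not move together. In all, 17 of 20 activation and effector memory genes were measured and 14 reached 50 CPM. Of these 14, 1 was higher and 4 lower, beside 2.91% higher and 2.03% lower among all 1924 genes. The median of the 17 was 0.10, beside 0.18 over all genes at 20 CPM. It turned to -0.02, -0.08 and -0.05 under the 3 other scalings. KLRB1, which encodes the lectin receptor CD161, was under 50 CPM but nearly absent from endogenous cells, with 86 UMIs in transferred and 1 UMI in endogenous cells. Its CPM ratio was 38.1 (6.66 to 1522). On day 3 KLRB1 was 9.66 CPM (1.99 to 28.2) in transferred and 3.79 CPM (1.82 to 6.97) in endogenous cells, with overlapping intervals.

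Among genes of migration, RGS1 and GPR183 were at least 2-fold lower in transferred cells, and the integrin genes of mucosal homing differed in direction among themselves. RGS1 (ENSMMUG00000003486), which shortens chemokine receptor signals, was 19.7 CPM (14.7 to 26.0) in transferred and 198 CPM (173 to 226) in endogenous cells, and on day 3 it was 9.66 CPM in transferred and 282 CPM in endogenous cells. GPR183 (ENSMMUG00000012338), an oxysterol receptor that places lymphocytes in follicles and T cell zones, was 20.5 CPM (15.4 to 26.8) in transferred and 143 CPM (122 to 167) in endogenous cells, and on day 3 it was 12.9 CPM in transferred and 87.1 CPM in endogenous cells. Neither gene's intervals overlapped between the groups on either day.

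ITGAE, the integrin chain CD103, was 74.3 CPM (64.2 to 85.6) in transferred and 38.5 CPM (27.9 to 51.6) in endogenous cells, and its partner ITGB7 was 212 CPM (195 to 231) in transferred and 115 CPM (96.5 to 137) in endogenous cells. ITGA4, another chain that pairs with ITGB7, was 51.5 CPM (43.1 to 61.0) in transferred and 70.8 CPM (56.2 to 88.0) in endogenous cells, with overlapping intervals. CXCR4, the chemokine receptor of bone marrow homing, was 171 CPM (156 to 188) in transferred and 265 CPM (236 to 296) in endogenous cells. Of 19 homing genes 9 were measured, all at 50 CPM. Of these 9, 0 were at least 2-fold higher and 2 lower, beside 2.91% higher and 2.03% lower among all 1924 genes. The median was -0.39, beside 0.18 over all genes at 20 CPM. LPAR6 and GPR174, receptors for lysophospholipids outside that list, were at least 2-fold lower as well, LPAR6 at 25.9 CPM in transferred and 101 CPM in endogenous cells and GPR174 at 6.58 CPM in transferred and 54.2 CPM in endogenous cells. GPR174 had 0 UMIs in the 123 transferred cells of day 3, which allows up to 9.66 CPM (3 UMIs), and was 35.2 CPM in endogenous cells.

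Among genes of cell survival and death, BCL2 was at least 2-fold lower and BAX and FAS at least 2-fold higher in transferred cells, and the other measured members of the apoptosis lists were under 2-fold. BCL2 (ENSMMUG00000037487), which blocks mitochondrial cell death, was 12.8 CPM (8.80 to 17.9) in transferred against 132 CPM (112 to 155) in endogenous cells, a log2 ratio of -2.64. BAX (ENSMMUG00000003907), which opens the mitochondrial outer membrane and is a p53 target, was 258 CPM (239 to 278) in transferred against 95.3 CPM (78.2 to 115) in endogenous cells, a log2 ratio of 1.35. FAS, a death receptor and p53 target, was 53.4 CPM (44.9 to 63.1) in transferred and 18.4 CPM (11.4 to 28.1) in endogenous cells.

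On day 3 BCL2 was 126 CPM (89.3 to 172) in transferred and 269.8 CPM (250.3 to 290.3) in endogenous cells, and BAX was 512 CPM (435 to 598) in transferred and 106 CPM (93.7 to 119) in endogenous cells. Transferred cells thus had the lower BCL2 and the higher BAX level on both days, with the log2 ratio of BCL2 at -1.05 on day 3 and that of BAX at 2.17. Whether either ratio differed between the days was not tested. SESN1, a p53 target that restrains growth signalling, went against BAX and FAS at 6.97 CPM (4.13 to 11.01) in transferred and 74.3 CPM (59.4 to 91.9) in endogenous cells. Of 18 p53 targets 7 were measured and 6 reached 50 CPM. Of these 6, 2 were higher and 1 lower, beside 2.91% higher and 2.03% lower among all 1924 genes. The median of the 7 was 0.39, beside 0.18 over all genes at 20 CPM. CDKN1A, the cell cycle inhibitor of that list, had 15 UMIs in transferred and 6 UMIs in endogenous cells. Among 3 measured pro-apoptotic genes, BAX and FAS were higher and BID was near even at 39.9 CPM in transferred and 36.7 CPM in endogenous cells, and the p53 list holds BAX and FAS as well. The 3 measured anti-apoptotic genes had BCL2 lower, CFLAR at 36.4 CPM in transferred and 19.2 CPM in endogenous cells, and BCL2A1 at 41.4 CPM in transferred and 62.9 CPM in endogenous cells.

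BCL2 also stands in the IL-2 and STAT5 response list. It was the 1 of 6 measured members that was at least 2-fold lower, with 0 higher and a median of -0.44. Only 3 of the 6 reached 50 CPM. Among all 1924 genes 2.03% were lower and 2.91% higher, and the median of all genes at 20 CPM was 0.18. SOCS1, a feedback inhibitor of cytokine signalling, was 23.2 CPM in transferred and 45.4 CPM in endogenous cells, and MYC, a driver of growth, was 58.9 CPM in transferred and 89.2 CPM in endogenous cells. CISH, another feedback inhibitor, was low in both groups on day 20, at 20.9 CPM (15.7 to 27.3) in transferred and 29.7 CPM (20.6 to 41.5) in endogenous cells. On day 3 CISH was 296 CPM in transferred and 259 CPM in endogenous naive-like cells, so its level was higher on day 3 than on day 20 in both groups.

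Cytokine genes were led by CSF1 (ENSMMUG00000002680), the growth factor of macrophages and monocytes and the gene with the highest log2 ratio, 2.96. It was 102 CPM (89.9 to 115) in transferred against 4.37 CPM (1.42 to 10.2) in endogenous naive-like cells, from 263 UMIs in transferred and 5 UMIs in endogenous cells, a ratio of 23.3 (9.86 to 72.4). On day 3 it was 126 CPM (89.3 to 172) in transferred and 7.58 CPM (4.63 to 11.7) in endogenous cells, and each group's intervals of the 2 days overlapped. CSF1 was found in 21.2% (18.7 to 23.9) of transferred and 1.21% (0.395 to 2.81) of endogenous cells, and endogenous effector Tregs had 135 CPM.

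CD40LG, the ligand through which helper T cells activate B cells, was lower, with 2 UMIs in transferred and 29 UMIs in endogenous cells, a ratio of 0.0305 (0.00353 to 0.121), at under 50 CPM in both. It was found in 2 of 985 transferred cells, or 0.203% (0.0246 to 0.732), and in 26 of 412 endogenous cells, or 6.31% (4.16 to 9.11). Of 13 helper cytokine genes 5 were measured and 4 reached 50 CPM. CSF1 was the 1 counted as higher and 0 were lower, beside 2.91% higher and 2.03% lower among all 1924 genes. LTB, a lymphoid tissue cytokine, was 2355 CPM in transferred and 1776 CPM in endogenous cells.

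Interferon response genes went both ways, with 14 of 24 measured and 8 at 50 CPM. Of these 8, 2 were higher and 0 lower, beside 2.91% higher and 2.03% lower among all 1924 genes. The median of the 14 was 0.23, close to the 0.18 of all genes at 20 CPM. IFI27, an interferon-induced mitochondrial protein, was 225 CPM (207 to 244) in transferred and 98.8 CPM (81.4 to 119) in endogenous cells, and BST2, which tethers viruses, was 309.7 CPM (289 to 332) in transferred and 149 CPM (128 to 174) in endogenous cells. IFI6, an interferon-induced membrane protein, was lower but under 2-fold, at 116 CPM (103 to 130) in transferred and 195 CPM (170.2 to 222) in endogenous cells. MX1, an antiviral GTPase, was 14.7 CPM in transferred and 29.7 CPM in endogenous cells.

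The T cell receptor signalling list was near even, with 13 members measured, 0 of them counted in either direction, and a median of 0.06 that turned to between -0.14 and -0.08 under the 3 other scalings. LCK, the kinase that starts receptor signalling, had the widest gap in it at 480.1 CPM (454 to 508) in transferred and 269 CPM (240.0 to 301) in endogenous cells, and ZAP70, the next kinase, was 112 CPM in transferred and 107 CPM in endogenous cells. The 8 measured glycolysis genes had 0 counted in either direction and a median of 0.26, beside 0.18 over all genes at 20 CPM. Of 22 measured oxidative phosphorylation genes, all at 50 CPM, 1 was higher and 0 lower. Among all 1924 genes 2.91% were higher and 2.03% lower. The median of the 22 was 0.30. The higher gene was SLC25A4, which carries ADP and ATP across the inner mitochondrial membrane. It was 224 CPM (206 to 243) in transferred and 90.9 CPM (74.3 to 110.1) in endogenous cells.

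The 7 measured proliferation genes, 4 of them at 50 CPM, had a median of 0.42, beside 0.18 over all genes at 20 CPM. MKI67, present in cycling cells, had 4 UMIs in transferred and 1 UMI in endogenous cells. STMN1, a microtubule regulator of dividing cells, was the 1 member that was at least 2-fold higher, and 0 were lower. Among all 1924 genes 2.91% were higher and 2.03% lower. STMN1 was 176 CPM (160.0 to 193) in transferred and 78.7 CPM (63.3 to 96.7) in endogenous cells. On day 3 it was even at 132 CPM in transferred and 134 CPM in endogenous cells. Heat shock genes had 0 of 7 measured members counted and a median of 0.17. The 6 measured T helper lineage genes, of which 1 reached 50 CPM, had 0 counted and a median of 0.04. ID2 in the last list, an inhibitor of E protein transcription factors, was 11.6 CPM (7.84 to 16.6) in transferred and 41.1 CPM (30.2 to 54.6) in endogenous cells. Of the immediate early genes 2 of 14 were measured and 0 counted, and no cytotoxic, MHC class II, NK cell, CD8 T cell or platelet gene of those lists reached 20 CPM in either group. In the red cell list only the hemoglobin gene HBA2 did, at 148 CPM (133 to 164) in transferred and 117 CPM (98.1 to 139) in endogenous cells, with overlapping intervals.

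Among the other genes named for the size of their ratio, CST3 and IGKC are known from cell types other than T cells and were the 1 counted gene of the monocyte and of the B cell marker list. CST3, the protease inhibitor cystatin C, abundant in myeloid cells, was 71.6 CPM (61.7 to 82.7) in transferred and 2.62 CPM (0.541 to 7.66) in endogenous cells, from 185 UMIs in transferred and 3 UMIs in endogenous cells, a ratio of 27.3 (9.20 to 134). The defining monocyte genes S100A8 and S100A9 were at 0 in both groups, CD14 was 2.32 CPM in transferred and 2.62 CPM in endogenous cells, and LYZ was 1.16 CPM in transferred and 0 in endogenous cells. IGKC, the kappa light chain constant region of B cells, was 109 CPM (96.5 to 122) in transferred and 23.6 CPM (15.6 to 34.3) in endogenous cells, while the B cell gene CD79A was 19.7 CPM (14.7 to 26.0) in transferred and 28.0 CPM (19.1 to 39.5) in endogenous cells. CD79B was 18.6 CPM in transferred and 18.4 CPM in endogenous cells, so the difference in IGKC did not come with one in these B cell genes.

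CD52 (ENSMMUG00000010240), a short glycoprotein abundant on lymphocytes, was the most abundant of the counted genes that have a symbol. It was 7126 CPM (7024 to 7230) in transferred and 2662 CPM (2569 to 2759) in endogenous cells. On day 3 it was 8489 CPM in transferred and 3194 CPM in endogenous cells. NAA15, a subunit of the enzyme that acetylates nascent proteins, was 185 CPM in transferred and 50.7 CPM in endogenous cells, and HEBP2, a heme-binding protein, was 181 CPM in transferred and 55.9 CPM in endogenous cells. Both were also at least 2-fold higher on day 3.

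STRIP2, a subunit of a phosphatase and kinase complex, had 145 UMIs in transferred and 2 UMIs in endogenous cells, a CPM ratio of 32.1 (8.73 to 268). The remaining genes named as higher, with log2 ratios between 1.39 and 2.16, were PTMS, a small acidic nuclear protein, MYO1F, an unconventional myosin, DOK2, an inhibitory adaptor, CLDND1, a membrane protein, ATP2B1, a plasma membrane calcium pump, SFR1, a cofactor of recombination repair, and SYTL2, a vesicle tethering protein. SFR1 and SYTL2 fell under 2-fold with a pseudocount of 30 CPM, both at a log2 ratio of 0.91, and SFR1 also with thinned cells, at 0.87.

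On the lower side, MT1M (ENSMMUG00000031088), a metal-binding metallothionein, was 5.03 CPM (2.68 to 8.61) in transferred and 103 CPM (85.4 to 124) in endogenous cells, and on day 3 it was 3.22 CPM in transferred and 33.7 CPM in endogenous cells. Metallothionein genes are near-identical copies of each other, so how the reads of the family were split between them is uncertain, and MT1M was the 1 of 7 listed metallothioneins that was measured. MT1L, which is not in that list, was also at least 2-fold lower, at 29.0 CPM (22.8 to 36.4) in transferred and 92.7 CPM (75.9 to 112) in endogenous cells, and on day 3 it was 19.3 CPM in transferred and 42.4 CPM in endogenous cells, with overlapping intervals on that day. PLA2G16, a phospholipase, was 23.6 CPM (18.1 to 30.3) in transferred and 212 CPM (186 to 240) in endogenous cells, and on day 3 it was 16.1 CPM in transferred and 175 CPM in endogenous cells. DNM3, a member of the dynamin family of membrane-cutting GTPases, had 3 UMIs in transferred and 79 UMIs in endogenous cells, a CPM ratio of 0.0168 (0.00340 to 0.0510), and CNKSR3, a signalling scaffold, had 4 UMIs in transferred and 64 UMIs in endogenous cells. DNM3 also separated endogenous naive-like cells, at 69.1 CPM, and endogenous effector cells, at 2.25 CPM. GPRIN3, a partner of G proteins, was 9.29 CPM in transferred and 58.6 CPM in endogenous cells.

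**Figure D3:**
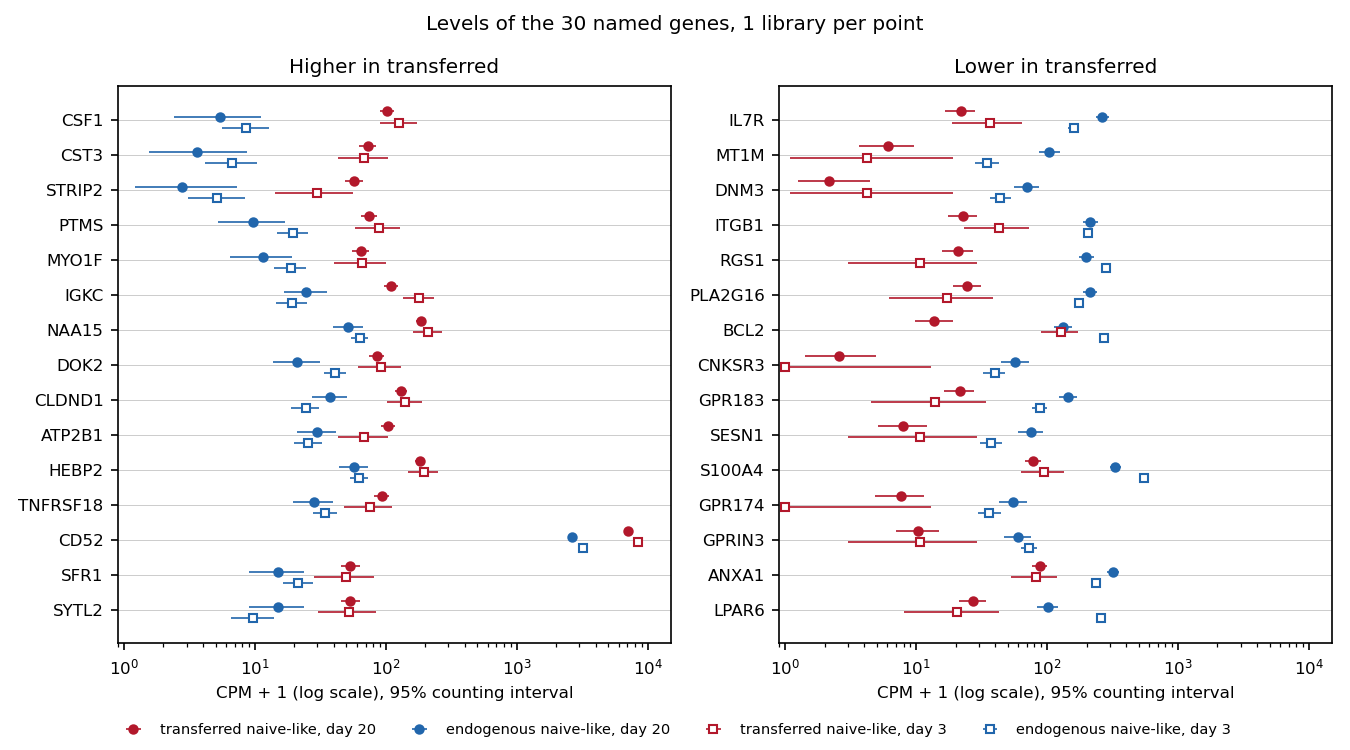
Levels of the 15 genes higher (left) and 15 lower (right) in transferred cells that have the largest day 20 ratios, in CPM plus 1 on a log axis. Each marker is 1 group of cells from 1 library, red for transferred and blue for endogenous, filled for day 20 and open for day 3, and bars are 95% counting intervals. On day 20 the red and blue intervals are apart for all 30 genes, which the choice of genes by their day 20 ratio favours. The open markers lie on the same side of each other as the filled ones.

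The same contrast was also made in the day 3 libraries, which the day 20 comparison did not use. The day 3 cells were chosen by the same deposited names. If those names came from expression, agreement between the days is in part built in, so the day 3 values are a description and not an independent check. The day 3 contrast set 123 transferred naive-like cells (310648 UMIs) against 798 endogenous ones (2639307 UMIs). Of 1963 genes at 50 CPM on day 3, 113 (5.76%) were 2-fold or more higher in transferred cells and 67 (3.41%) lower by as much, and the median of all was 0.29. Of the 56 genes higher on day 20, 55 had a ratio above even on day 3, where 70.9% of all genes did. Of 47 of them that reached 50 CPM on day 3, 27 (57.4%) were at least 2-fold higher there and 0 at least 2-fold lower. Of the 39 genes lower on day 20, 38 were below even on day 3, where 29.1% of all genes were. Of the 26 of these at 50 CPM, 18 (69.2%) were at least 2-fold lower and 0 at least 2-fold higher. The 27 shared higher genes are 48.2% of the day 20 and 23.9% of the day 3 higher genes, and the 18 shared lower ones 46.2% and 26.9%.

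Of the 15 named lower genes 10 reached 50 CPM on day 3 and all 10 were at least 2-fold lower there, RGS1 at a log2 ratio of -3.89 and LPAR6 at -3.19 being the lowest. Of the 15 named higher genes 13 reached 50 CPM and 11 were at least 2-fold higher, with TNFRSF18 at 0.96 and DOK2 at 90.1 CPM in transferred and 40.2 CPM in endogenous cells under the limit. The day 3 transferred naive-like cells were few, and 119 of the 123 were in the authors' cluster 1, not in cluster 2, which held 93.5% of those of day 20. Cluster 1 also held 1123 of the 1124 transferred effector Tregs of day 3. Endogenous naive-like cells were mostly in cluster 4 on both days, with 715 of 798 cells on day 3. The 2 days are separate sorts of 1 library each. Whether they share an animal is not given in the labels.

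**Figure D4:**
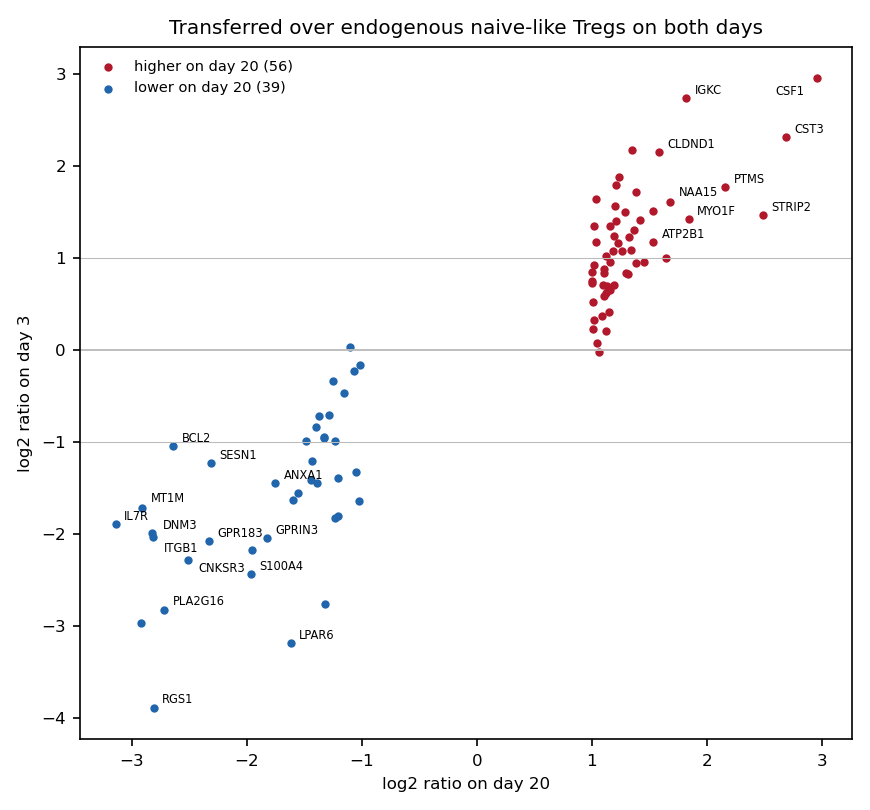
Log2 ratio of transferred over endogenous naive-like Tregs on day 20 (horizontal) and day 3 (vertical) for the 56 genes higher (red) and 39 lower (blue) on day 20. On day 3 55 of the 56 red points lie above and 38 of the 39 blue points below even. Among the genes that have a symbol, RGS1 and LPAR6 lie lowest and CSF1 and IGKC highest on day 3. Several genes near the day 20 limit lie close to 0 on day 3.

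The deposited names also cross the sorts. In the CD25high CD127low library of day 20, 64 cells carry the transferred naive name (140810 UMIs), and in the CFSE-positive library 40 cells carry the endogenous naive name (93288 UMIs), and neither set entered the comparison. None of the 64 cells shares a barcode with the CFSE-positive library, and all 64 are of the authors' endogenous Treg class. Of them 41 (64.1%) are in the authors' cluster 3, which also holds the 444 endogenous effector Tregs of day 20. For 39 of the 56 higher genes the 64 cells were nearer, on the log2 scale, to the transferred than to the endogenous group, and for 27 of the 39 lower genes nearer to the endogenous group of their own library. CSF1 was 114 CPM (64.9 to 185) in them, close to the 985 transferred cells and to the 135 CPM of endogenous effector Tregs. Whether the 64 cells were nearer to effector than to transferred cells was not tested. IL7R was 135 CPM (81.2 to 211) and ITGB1 241 CPM (167 to 337) in them, nearer to the 412 endogenous cells. Their S100A4 level of 3302 CPM (3009 to 3617) was above both groups and below the 5272 CPM of endogenous effector Tregs.

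Of the 40 cells named endogenous in the CFSE-positive library, 27 are of the authors' transferred Treg class, 9 of the conventional T cell class and 4 of the endogenous Treg class. The 40 cells lay nearer to the transferred group of their own library for 33 of the 56 higher and 29 of the 39 lower genes. IL7R was an exception at 161 CPM (90.0 to 265), and so was PLA2G16 at 118 CPM (58.9 to 211). BAX was 332 CPM and ITGB1 32.2 CPM (6.63 to 93.98) in these cells. Sums of this size carry wide intervals, and which of the sort and the name is right for a crossed cell was not tested.

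**Figure D5:**
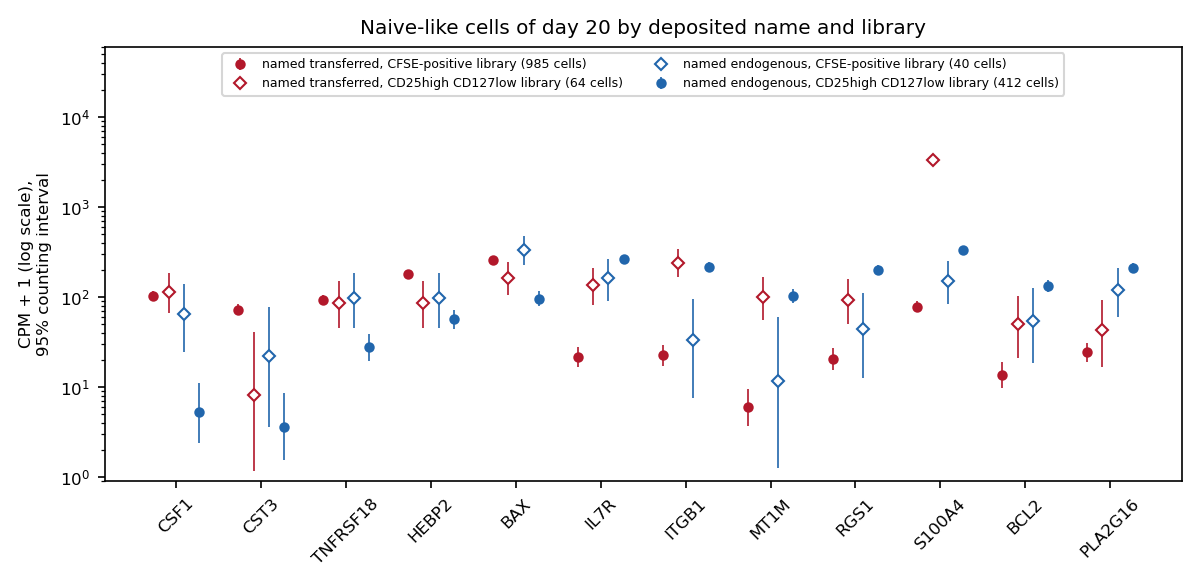
Levels of 12 genes in CPM plus 1 (log axis) in the 4 sets of naive-like cells of day 20 by deposited name (red transferred, blue endogenous) and library (filled where name and sort match, open where they cross), with 95% counting intervals. The open red diamonds lie with the filled red circles for CSF1 and with the filled blue ones for IL7R, ITGB1 and MT1M, and are highest of all for S100A4.

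Within the transferred group, the cells outside the authors' cluster 2 differed from the 921 inside it. IL7R was 143 CPM in these few and 13.2 CPM in cluster 2, and S100A4 was 332 CPM in these few and 61.3 CPM in cluster 2. ISG15, an interferon-induced ubiquitin-like protein, was 222 CPM in these few and 49.0 CPM in cluster 2. Of the 985 cells 31 were of the authors' conventional T cell class and 17 of the endogenous Treg class. With the 937 cells of the transferred Treg class alone, 58 genes were higher and 38 lower. Low IL7R, ITGB1 and RGS1 were not particular to the naive-like transferred cells. The 57 cells named transferred in transition in the same library had 20.4, 20.4 and 13.6 CPM of them, from 3, 3 and 2 UMIs. Transferred effector Tregs of day 3 had 3.03, 28.5 and 15.4 CPM. In those effector cells BCL2 and S100A4 were not as low, at 176 and 440 CPM.

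Most of the 15 named higher genes were at or above the transferred level in endogenous effector Tregs, which stood outside the comparison. These cells had 222 CPM of PTMS, 338 CPM of NAA15, 211 CPM of TNFRSF18 and 3261 CPM of S100A11, each above the transferred level. So were CSF1 at 135 CPM, CST3 at 115 CPM, DOK2 at 138 CPM and MYO1F at 102 CPM in effector cells. IGKC was close, at 107 CPM in effector and 109 CPM in transferred cells. SFR1, STRIP2 and HEBP2 were lower in effector than in transferred cells, at 21.7, 24.7 and 117 CPM in effector cells. When the authors' whole transferred and endogenous Treg classes of day 20 were compared in place of the naive-like cells, 12 genes were higher and 53 lower. Among them were 8 of the 56 and 21 of the 39 genes. That endogenous class takes 535 of its 938 cells from cluster 3, which holds the effector cells. PTMS, NAA15, TNFRSF18 and S100A11 then lay below even, so their higher levels in transferred cells hold against endogenous naive-like cells and not against the class as a whole. Of the 22 higher genes that are named or in a gene list, 20 fell under 2-fold in the whole classes, beside 4 of the 18 lower ones.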

How the data were processed

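Per the labels, libraries were made with 10x 3' version 2 chemistry, and per the submitters' processing notes Cell Ranger 2.1.1 was used. Genome build and annotation were not given in the sources used here, and for that reason no coordinates or sequences are printed. The values deposited by the authors are raw counts of UMIs for 16429 genes in 25397 cells, beside each cell's library, cluster, class and, for 7515 cells, a finer name. Cells were assigned by the deposited library and name, and 0 columns went unused. Of 3130 identifiers with no symbol in the file, 309 were named from a reference table.

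Counts were summed per library and name and divided by the total. Because each group is 1 library, no count model was run. A gene was counted at 2-fold or more on log2(CPM + 10) with 50 CPM in either group, and list members were measured at 20 CPM. The text names the 15 counted genes per direction with the largest ratio that have a symbol and are neither mitochondrial nor ribosomal protein genes, and members of 26 gene lists (353 members, 304 in the table) as examples. HCLS1, ITGB2 at the limit, MT1L, the lysophospholipid receptors' grouping and the cells outside cluster 2 were chosen after their values were seen. The group comparison, members and lists were chosen with earlier results of these data known. For symbols with more than 1 identifier, that with the highest UMI sum was kept.

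Levels carry exact Poisson, ratios exact conditional binomial and shares of cells Clopper-Pearson intervals, all at 95%. PCR and droplet losses are outside these intervals, and a count of 0 allows up to 3 UMIs. No doublet caller was run, and 12 transferred and 13 endogenous cells with 3 or more UMIs of markers of B cells, monocytes, platelets or red cells, or over 2 times their group's median UMIs were left out in an alternative. edgeR 4.0.16 (TMM) and DESeq2 1.42.0 (median of ratios) gave scaling factors only. The ratios, the counting rule and the ratio intervals were tested on simulated summed counts. The summing over cells was not tested. Python 3.11.15 and R 4.3.3 were used. Nothing in the labels says whether cells of a library come from 1 or several animals. Values of some single list members are not reported here.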

Additional observations from a re-analysis of the deposited data

How the results depend on the processing

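No paired analysis was possible because each group is 1 library and the labels give no replicate numbers. With 56 higher and 39 lower genes (58.9% of the counted genes higher), TMM factors gave 34 higher genes (39.5%), median-of-ratios factors 21 with 66 lower (24.1%) and the named-gene total 32 (36.0%), with median shifts of -0.15, -0.21 and -0.17 log2. Pseudocounts of 1 and 30 CPM gave 91 and 23 higher genes, no minimum 131 higher and 61 lower, a minimum of 20 CPM 103 higher, thinned cells 97 higher, a 3-fold limit 9 higher and 17 lower, and the authors' whole classes 12 higher. Of genes counted on both days, the 27 higher became 13 with TMM, 12 with median-of-ratios, 46 and 15 with pseudocounts of 1 and 30 CPM and 41 with thinned cells, and the 18 lower became 32, 37 and 28 in the order of the 3 scalings above. Of the 22 higher and 18 lower genes recomputed, ratios changed sign only in the whole classes, PTMS to -0.61, NAA15 to -0.20, TNFRSF18 to -0.45 and S100A11 to -0.016, where the endogenous class includes effector cells by construction. Ratios near even turned more easily, IL2RA to -0.08 with median-of-ratios factors. All 15 named lower genes stayed at least 2-fold lower with both pseudocounts. The 3 scalings lower all ratios, so they do not test the lower genes. Leaving out doublet-like cells gave 56 and 39 again, with 52 and 39 of the genes kept. Cluster and class restrictions were added after the data were seen. In the endogenous group 1 UMI is worth 0.874 CPM, so genes near 50 CPM rest on few UMIs.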
